A study of Mus musculus with 14 samples.

Results

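Cullin 3, its core partners and the transcription factors it controls were followed at the RNA level in mouse liver. The 10 genes were taken by symbol from a deposited table of 43548 genes: Cul3, Keap1, Nfe2l2, Nfe2l1, Bach1, Rbx1, Nedd8, Cand1, Mafg and Sqstm1. Each symbol matched 1 row, and all 10 passed the filter on low values (at least 1 FPKM in at least 3 libraries).

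Cullin 3 is the scaffold of a family of ubiquitin ligases. It holds the RING protein RBX1 at one end, which brings the ubiquitin-charged enzyme, and a BTB-domain adaptor at the other, which brings the substrate. Attachment of the ubiquitin-like protein NEDD8 activates the ligase, and CAND1 binds the cullin when NEDD8 is off and helps exchange its adaptors. With the adaptor KEAP1, the ligase marks NRF2 (encoded by Nfe2l2) for degradation, and in liver stabilized NRF2 drives genes of glutathione and drug metabolism together with a small Maf partner such as MAFG. BACH1 competes for the same DNA elements as a repressor, NRF1 (Nfe2l1) is a related activator best known for proteasome genes, and p62 (Sqstm1) binds KEAP1 and takes it to autophagy.

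All animals were C57BL/6 mice with floxed Cul3, fed control (CD) or Western (WD) diet over 13 weeks, and for 5 weeks more once an adeno-associated virus (AAV) had been injected into the tail vein. WT mice received AAV-TBG-Null and so carry the floxed alleles with no Cre, and KO mice received AAV-TBG-Cre, in which the hepatocyte-specific TBG promoter limits deletion to hepatocytes and leaves Cul3 in the other liver cells. The groups are WT+CD (3 libraries), KO+CD (3), WT+WD (4) and KO+WD (4). RNA of whole liver was made into 3' tag libraries, and levels are FPKM, the authors' fragment numbers scaled by transcript length and library size. Nothing in the labels says that each library is its own animal. The p-values therefore reflect library-to-library spread, which may be technical. In bulk liver, fewer cells of a type and less RNA per cell cannot be told apart.

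The depth behind each value is unknown, since the table holds no counts, and between 8600 and 9970 genes reached 1 FPKM per library. All 10 hepatocyte markers checked reached 1 FPKM in every group. Their summed FPKM was 14122 to 14437 in WT+CD, 19573 to 21943 in KO+CD, 13206 to 21035 in WT+WD and 12381 to 17430.5 in KO+WD. In KO 3 of them fell on CD and 1 on WD (after adjustment for the sets described next, 1 fell on CD, and 1 fell and 1 rose on WD). By the FPKM ratios of genes seen with very few reads, the libraries were split into 2 sets whose meaning the labels do not give. The number of sets was imposed and not found. Set 1 holds 8 libraries (WT+CD 1, 3 and 4, WT+WD 3 and 4, KO+WD 1, 2 and 4) and set 2 holds 6 (KO+CD 1, 2 and 3, WT+WD 1 and 2, KO+WD 3). On CD the sets coincide with genotype and the 2 cannot be told apart there. On WD each genotype has libraries of both sets, so a fit that has the set as a covariate (set adjustment) is given beside the KO effects. Its set offset comes from the WD libraries alone, where the only KO library of set 2 is replicate 3. Adjusted effects that use CD libraries carry this offset over to them. On CD a call lost after set adjustment therefore does not tell set from genotype. Over all genes 6.97% differed between the sets at an adjusted p under 0.05, and of the 10 genes Cul3 and Mafg did. A second definition of the sets, chosen after seeing the data, goes by which libraries hold a placeholder for the gene Yam1. It puts KO+WD replicate 3 in set 1 and KO+WD replicate 4 in set 2 and is otherwise the same.

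The start regions of 4 genes are shown first, Keap1, Nfe2l1 and Mafg because a comparison called them and Nfe2l2 because it encodes NRF2 itself. NRF2 and BACH1, each paired with a small Maf, bind antioxidant response elements. Searched on both strands were the core TGACNNNGC and a looser element, TGA and GCA with 4 free bases between them, which can overlap the core. Sequences are RefSeq windows of GRCm38.p6 from 250 bases before to 50 after an annotated start, on the strand of the gene, in lower case with matches to either in capitals.
Keap1: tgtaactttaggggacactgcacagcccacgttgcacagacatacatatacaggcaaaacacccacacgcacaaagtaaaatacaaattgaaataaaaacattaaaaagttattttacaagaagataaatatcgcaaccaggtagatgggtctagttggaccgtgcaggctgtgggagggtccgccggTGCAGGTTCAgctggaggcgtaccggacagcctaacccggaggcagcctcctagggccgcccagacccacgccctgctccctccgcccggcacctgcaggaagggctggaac
Nfe2l2: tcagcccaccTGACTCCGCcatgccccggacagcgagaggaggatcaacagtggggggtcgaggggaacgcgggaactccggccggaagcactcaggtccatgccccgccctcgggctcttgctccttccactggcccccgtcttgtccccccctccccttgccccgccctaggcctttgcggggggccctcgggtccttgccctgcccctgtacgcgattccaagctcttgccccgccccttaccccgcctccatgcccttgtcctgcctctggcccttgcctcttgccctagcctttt
Nfe2l1: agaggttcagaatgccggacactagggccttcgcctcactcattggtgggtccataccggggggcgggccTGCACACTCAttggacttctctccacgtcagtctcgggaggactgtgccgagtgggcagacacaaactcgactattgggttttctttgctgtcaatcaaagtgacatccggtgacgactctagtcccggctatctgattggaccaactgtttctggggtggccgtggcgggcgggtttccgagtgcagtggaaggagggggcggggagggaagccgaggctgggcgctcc
Mafg: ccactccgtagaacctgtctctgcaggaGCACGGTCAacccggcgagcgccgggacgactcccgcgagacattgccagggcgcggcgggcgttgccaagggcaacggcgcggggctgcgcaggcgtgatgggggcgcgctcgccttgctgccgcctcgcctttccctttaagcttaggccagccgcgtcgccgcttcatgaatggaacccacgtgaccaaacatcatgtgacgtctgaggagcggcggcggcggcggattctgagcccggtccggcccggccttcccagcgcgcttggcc
The core is in the windows of Nfe2l2 (chr2:75704614-75704913, minus strand), at -240 from the annotated start, and of Mafg (chr11:120633498-120633797, minus strand), at -222 and on the opposite strand. The looser element is in the window of Keap1 (chr9:21239283-21239582, minus strand), at -62, and in that of Nfe2l1 shown here (chr11:96829919-96830218, minus strand), at -180, both on the opposite strand. Of all 32851 windows, 12.4% hold the core and 13.0% the looser element. Among the 14 windows of the 10 genes, 2 hold the core and 5 the looser element, 4 of these 5 being start windows of Nfe2l1, of which 3 overlap and share 1 match. A match is a run of letters and not a measured binding site.

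The scaffold comes first because it is the deleted gene. Cul3 (ENSMUSG00000004364, mm10 chromosome 1, 80264923 to 80340480) measured 23.9, 29.5 and 25.7 FPKM in WT+CD and 18.3, 15.4 and 11.3 in KO+CD. On WD, WT libraries 1 to 4 had 12.3, 7.46, 25.9 and 18.0 FPKM, and KO libraries 24.3, 26.6, 18.5 and 24.3. So the KO libraries lay below all WT libraries on CD and overlapped them on WD, where the KO mean was the higher (23.4 ± 3.45 against 15.9 ± 7.92, SD, n = 4 and 4). No limma contrast passed: the log2 fold change of KO against WT was -0.80 on CD (95% interval -1.52 to -0.07, adjusted p = 0.117) and 0.65 on WD (0.02 to 1.27, adjusted p = 0.199). The difference between these was 1.44 (0.49 to 2.40, adjusted p = 0.0802), and 0.44 (-0.47 to 1.35, adjusted p = 0.935) after set adjustment. Of the 14 fits that each left out 1 library, it passed in the one without WT+WD replicate 3 (1.71, adjusted p = 0.0401). A deletion removes exons that the sources used here do not name, and a tag at the 3' end may lie outside them, so this level checks neither the deletion nor the labels.

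The level of Cul3 went partly with the library set, which on CD cannot be told apart from genotype. KO+WD replicate 3, of set 2, had 18.5 FPKM and lay just above WT+WD replicate 4, of set 1, with 18.0. Between sets its log2 level differed by -0.80 ± 0.22 (SE, set 2 minus set 1, limma adjusted p = 0.0490), and the lowest WT libraries on WD, replicates 1 and 2, are those of set 2. After set adjustment the KO effect was 0.01 on CD (adjusted p = 0.997) and 0.45 on WD (adjusted p = 0.234). Within set 1 on WD, with 2 WT and 3 KO libraries, the effect was 0.21 (-0.22 to 0.63). Without WT+WD replicate 2, and also in a fit of the CD libraries alone, the CD contrast passed at the same -0.80 (adjusted p = 0.0399 and 0.0418).

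**Figure D1:**
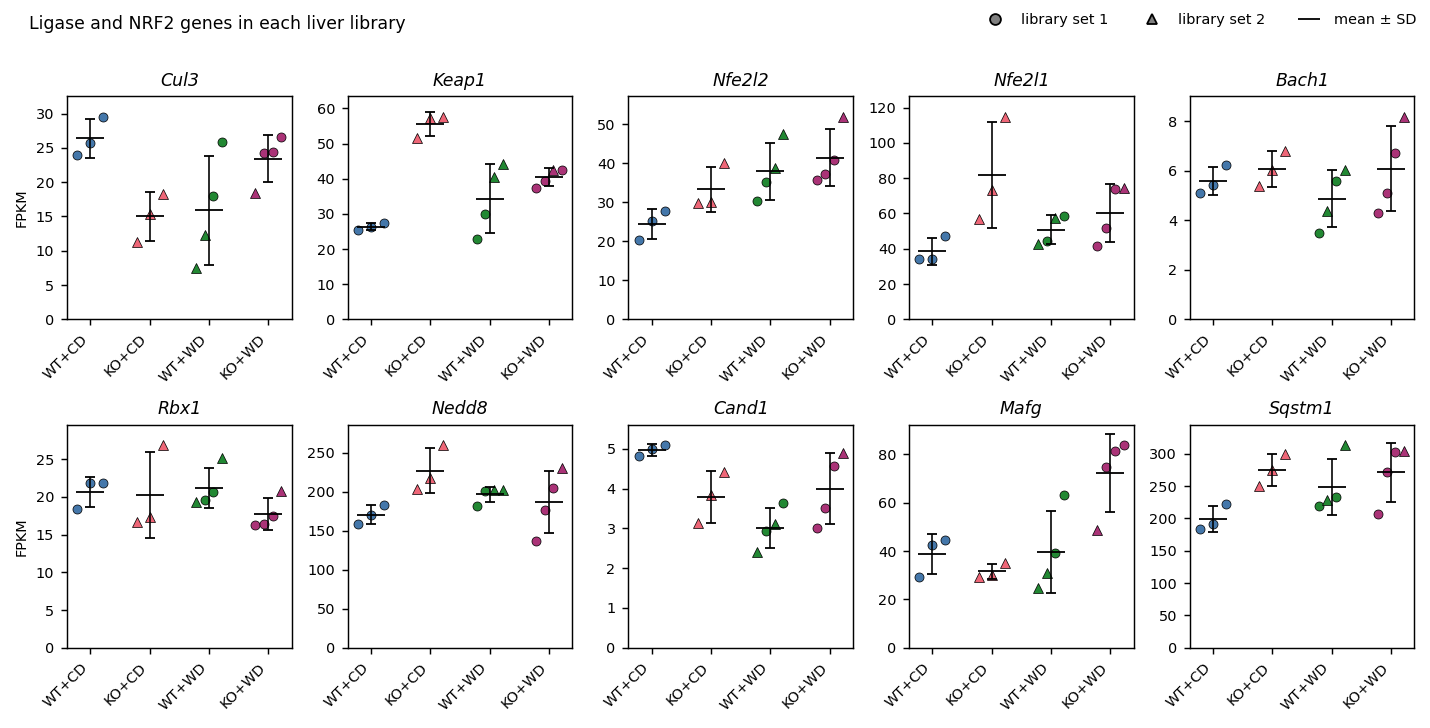
FPKM (y axis) of the 10 genes in each of the 14 libraries by group (x axis), circles for library set 1 and triangles for set 2, with the mean and SD of each group. Keap1 in KO+CD (51.6 to 57.7 FPKM) lies above all other libraries, and Cul3 is lowest in WT+WD replicate 2 (7.46 FPKM), a set 2 library.

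RBX1, NEDD8 and CAND1 build and cycle the active ligase, and none of their genes passed the test in any comparison. Rbx1 measured 18.3, 21.8 and 21.8 FPKM in WT+CD, 16.7, 26.9 and 17.3 in KO+CD, 19.3, 25.2, 20.7 and 19.7 in WT+WD, and 16.3, 17.4, 20.8 and 16.4 in KO+WD. The 4 groups overlap, and the KO effect was -0.05 on CD (-0.49 to 0.38) and -0.24 on WD (-0.62 to 0.13). These intervals leave out a change of 1 on the log2 scale in either direction. After set adjustment the effects were -0.25 and -0.19 (adjusted p = 0.721 and 0.527). An Rbx1 pseudogene copy on chromosome 17, Rbx1-ps, was listed at 0 to 7.94 FPKM, so some reads may be split between the copies.

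Nedd8 had 171, 159 and 182 FPKM in WT+CD and 204, 260.0 and 217 in KO+CD. On WD it had 202, 203, 200.5 and 181 FPKM in WT against 204, 137, 231 and 176 in KO. The groups were apart on CD and overlapped on WD, and neither KO effect passed (0.41, adjusted p = 0.145, and -0.10, adjusted p = 0.752, or 0.17 and -0.037 after set adjustment). Cand1 had 4.81, 5.09 and 4.99 FPKM in WT+CD, 3.83, 4.42 and 3.13 in KO+CD, 3.12, 2.40, 2.93 and 3.63 in WT+WD, and 3.52, 3.01, 4.90 and 4.56 in KO+WD. WT+CD stood above all libraries of WT+WD, and the diet effect in WT was -0.58 (-0.99 to -0.17, adjusted p = 0.166). After set adjustment that effect was -0.60 (adjusted p = 0.280). On CD the KO libraries of Cand1 lay below those of WT, with an effect of -0.32 (adjusted p = 0.279), and on WD it was 0.31 (adjusted p = 0.310), or -0.36 and 0.32 after set adjustment.

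KEAP1 is the adaptor that senses electrophiles and holds NRF2. Keap1 (ENSMUSG00000003308, chromosome 9, 21229730 to 21239361) measured 26.2, 25.4 and 27.5 FPKM in WT+CD and 57.7, 51.6 and 57.2 in KO+CD. Every KO library was above every WT library, and Keap1 rose by 1.04 ± 0.21 on the log2 scale (SE, limma adjusted p = 0.00819). On WD, FPKM was 40.4, 44.3, 29.9 and 22.8 for the WT libraries, with 42.5, 37.4, 42.5 and 39.4 for the KO libraries. Here the groups overlapped and the effect was 0.27 (-0.12 to 0.67, adjusted p = 0.384), or 0.38 after set adjustment (adjusted p = 0.147). The effects on the 2 diets differed by -0.77 (-1.37 to -0.17, adjusted p = 0.108), and by -0.24 (-0.87 to 0.39, adjusted p = 0.960) after set adjustment. Of the 14 fits without 1 library, the one without WT+WD replicate 4 passed (-0.95, adjusted p = 0.0341).

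The WT libraries on WD with high Keap1, replicates 1 and 2, are of set 2, as are all KO libraries on CD. After set adjustment the CD effect was 0.62 (adjusted p = 0.238). The call on CD held when any 1 library was left out (highest adjusted p = 0.0362) and was lost in the fits with either definition of the set. Within set 1 on WD, the 2 WT libraries had 29.9 and 22.8 FPKM of Keap1 and the 3 KO libraries 42.5, 37.4 and 39.4, an effect of 0.59 (0.23 to 0.94, adjusted p = 0.0965). The pair of groups does not overlap within that set, while in set 2 on WD the effect was 0.01 (-0.52 to 0.53), from a single KO library taken to have the spread of the others. An antisense gene, Gm16754, covers the 3' end of Keap1 and was listed at 0 to 0.128 FPKM.

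NRF2 is degraded as a protein, and its messenger passed the test in no comparison. Nfe2l2 (ENSMUSG00000015839, chromosome 2, 75675513 to 75704641) had 25.2, 20.3 and 27.8 FPKM in WT+CD and 29.7, 30.1 and 40.0 in KO+CD. On WD it had 47.6, 38.9, 30.3 and 35.0 FPKM in WT against 37.2, 40.8, 51.9 and 35.7 in KO. By group mean the order from low to high was WT+CD (24.4 ± 3.77), KO+CD (33.3 ± 5.82), WT+WD (37.95 ± 7.31) and KO+WD (41.4 ± 7.33), and each group overlaps the next except WT+CD and KO+CD. The KO effect was 0.43 on CD (-0.03 to 0.89, adjusted p = 0.175) and 0.13 on WD (-0.27 to 0.52, adjusted p = 0.711), or 0.015 and 0.23 after set adjustment (adjusted p = 0.988 and 0.3997). WD against CD in WT gave 0.61 (0.18 to 1.04, adjusted p = 0.166), with no overlap of the groups, and 0.40 after set adjustment (adjusted p = 0.410).

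NRF1 is made in the endoplasmic reticulum membrane and is released to the nucleus when proteasome capacity is short. Nfe2l1 (ENSMUSG00000038615, chromosome 11, 96817414 to 96829968) measured 34.1, 34.2 and 47.0 FPKM in WT+CD and 73.3, 56.8 and 115 in KO+CD. It rose by 1.02 ± 0.28 on the log2 scale (SE, limma adjusted p = 0.0296), and no KO library reached down to the WT libraries. The spread within KO was wide, 81.7 ± 29.9 FPKM, and without KO+CD replicate 3 the effect was 0.75 (adjusted p = 0.125). The call also ended without WT+CD replicate 1 or 3 or KO+CD replicate 1 (adjusted p = 0.0849, 0.0977 and 0.0582) and with replicate number as a block (adjusted p = 0.0838). On WD, WT libraries had 42.6, 57.4, 58.5 and 44.5 FPKM and KO libraries 51.5, 73.8, 74.5 and 41.7, which overlap (0.22, -0.31 to 0.75, and 0.26 after set adjustment). After set adjustment the CD effect was 0.85 (adjusted p = 0.341), and Nfe2l1 itself differed little between the sets (0.17 ± 0.26 SE, adjusted p = 0.735).

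BACH1 represses heme oxygenase and other genes with antioxidant response elements until heme displaces it. Bach1 measured 5.11, 5.43 and 6.23 FPKM in WT+CD, 5.40, 6.03 and 6.82 in KO+CD, 4.40, 6.06, 5.58 and 3.50 in WT+WD, and 5.12, 6.74, 8.20 and 4.30 in KO+WD. All 4 groups overlap. The KO effect was 0.10 on CD (-0.41 to 0.61) and 0.26 on WD (-0.18 to 0.70), or -0.23 and 0.34 after set adjustment (adjusted p = 0.787 and 0.308).

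MAFG has no activation domain of its own and serves both NRF2 and BACH1 as DNA-binding partner. Mafg (ENSMUSG00000051510, chromosome 11, 120625117 to 120633600) measured 29.3, 44.4 and 42.7 FPKM in WT+CD and 30.3, 29.5 and 35.0 in KO+CD. On WD it had 31.0, 24.9, 39.4 and 63.3 FPKM in WT against 75.0, 83.9, 48.6 and 81.3 in KO. The KO libraries on WD other than replicate 3 were above every other library of the study. By the FPKM ratios replicate 3 is of set 2, and by the placeholder it is of set 1. Mafg rose in KO livers between the diets, from 31.6 ± 2.99 on CD to 72.2 ± 16.1 FPKM on WD (SD, n = 3 and 4), by 1.14 ± 0.29 on the log2 scale (limma adjusted p = 0.0384). On WD the KO effect was 0.90 (0.33 to 1.48) and missed the threshold (adjusted p = 0.0579), while on CD it was -0.27 (-0.93 to 0.39), or 0.50 after set adjustment (adjusted p = 0.454).

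Mafg differed between the sets by -0.77 ± 0.19 (SE, set 2 minus set 1, adjusted p = 0.0291). After set adjustment, the KO effect on WD was 0.71 and passed (adjusted p = 0.0348), but with the sets defined by the placeholder it was 0.81 and missed (adjusted p = 0.104), and the diet effect in KO was 0.56 and did not (adjusted p = 0.353). Within set 1 on WD the KO effect was 0.67 (0.11 to 1.23, adjusted p = 0.1999). Set 2 has a single KO library there, whose spread is borrowed from the other groups, and gave 0.79. In set 1 the values were 39.4 and 63.3 FPKM in WT against 75.0, 83.9 and 81.3 in KO, and in set 2 31.0 and 24.9 in WT and 48.6 in KO. The call of the diet effect ended when any of 8 libraries was left out, at most at an adjusted p of 0.104 without KO+CD replicate 1, and that of KO+WD was gained without WT+WD replicate 4 or KO+WD replicate 3 (adjusted p = 0.0121 and 0.0347). The 3' end of Mafg shares 124 bases of the same strand with the start of Sirt7, a sirtuin deacetylase gene, whose mean was 15.7 ± 4.13 FPKM in WT+WD and 22.7 ± 3.81 in KO+WD, so tags there may be assigned to either gene.

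p62 is both an autophagy receptor and a scaffold that competes with NRF2 for KEAP1. Sqstm1 (ENSMUSG00000015837, chromosome 11, 50199366 to 50210827) measured 223, 184 and 192 FPKM in WT+CD and 276, 300.1 and 250.3 in KO+CD. On WD it had 228, 314, 234 and 219 FPKM in WT against 303, 207, 304 and 272 in KO. The groups were apart on CD, where the effect was 0.46 (0.05 to 0.87, adjusted p = 0.108), and overlapped on WD, where it was 0.13 (-0.23 to 0.48, adjusted p = 0.677). After set adjustment these were 0.22 and 0.19 (adjusted p = 0.732 and 0.510). Mrnip, on the other strand, covers its 3' end and was listed at 0 to 5.88 FPKM.

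Counted together on CD, 2 of the 10 genes rose in KO (Keap1 and Nfe2l1) and 0 fell, where 15.0% of the 10870 tested genes passed (11.7% higher and 3.35% lower). The groups did not overlap for 7 of the 10, 5 higher (Keap1, Nfe2l2, Nfe2l1, Nedd8 and Sqstm1) and 2 lower (Cul3 and Cand1), as for 41.6% of all tested genes (26.7% higher and 14.9% lower). Their median log2 fold change was 0.25 and that of all tested genes 0.18. After set adjustment 0 of the 10 passed, against 1.16% of all genes. At an unadjusted p under 0.05, 5 of the 10 passed on CD and 2 after set adjustment.

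On WD, limma called 0 of the 10 genes in KO and 7.01% of all tested genes (6.01% higher), and 2 of the 10 had an unadjusted p under 0.05 (Cul3 and Mafg). The groups overlapped for all 10, while 13.7% of all tested genes did not overlap (11.6% higher and 2.17% lower). The median was 0.24 against 0.23 for all genes, and median centring moved the latter by over 0.1 (to -0.06). After set adjustment, 1 of the 10 passed (Mafg) and 7.75% of all genes. On median-centred values Keap1, Nfe2l2, Nfe2l1, Bach1 and Sqstm1 had negative WD effects (-0.016, -0.16, -0.070, -0.030 and -0.16), so the sign of these small effects rests on the scaling.

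For diet, limma called 0 of the 10 genes in WT, where 1.30% of all genes passed (0.662% higher and 0.635% lower, and 0.699% after set adjustment) and 3 of the 10 had an unadjusted p under 0.05. In WT the groups did not overlap for Nfe2l2 (higher on WD) and Cand1 (lower), as for 15.5% of all genes (9.22% higher and 6.28% lower). In KO, 1 of the 10 passed (Mafg), where 6.38% of all genes did (3.83% higher and 2.55% lower), and after set adjustment 0 of the 10 and 0.350% of all genes. There the groups did not overlap for Cul3 and Mafg (higher on WD) and Keap1 (lower, 37.4 to 42.5 against 51.6 to 57.7 FPKM), as for 26.9% of all genes (16.5% higher and 10.4% lower). Keap1 in KO had a diet effect of -0.45 (adjusted p = 0.157) and -0.13 after set adjustment (adjusted p = 0.835). A KO effect that differed between diets was called for 0 of the 10 and 0.340% of all genes, and for 4 of the 10 at an unadjusted p under 0.05, or 0 after set adjustment.

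**Figure D2:**
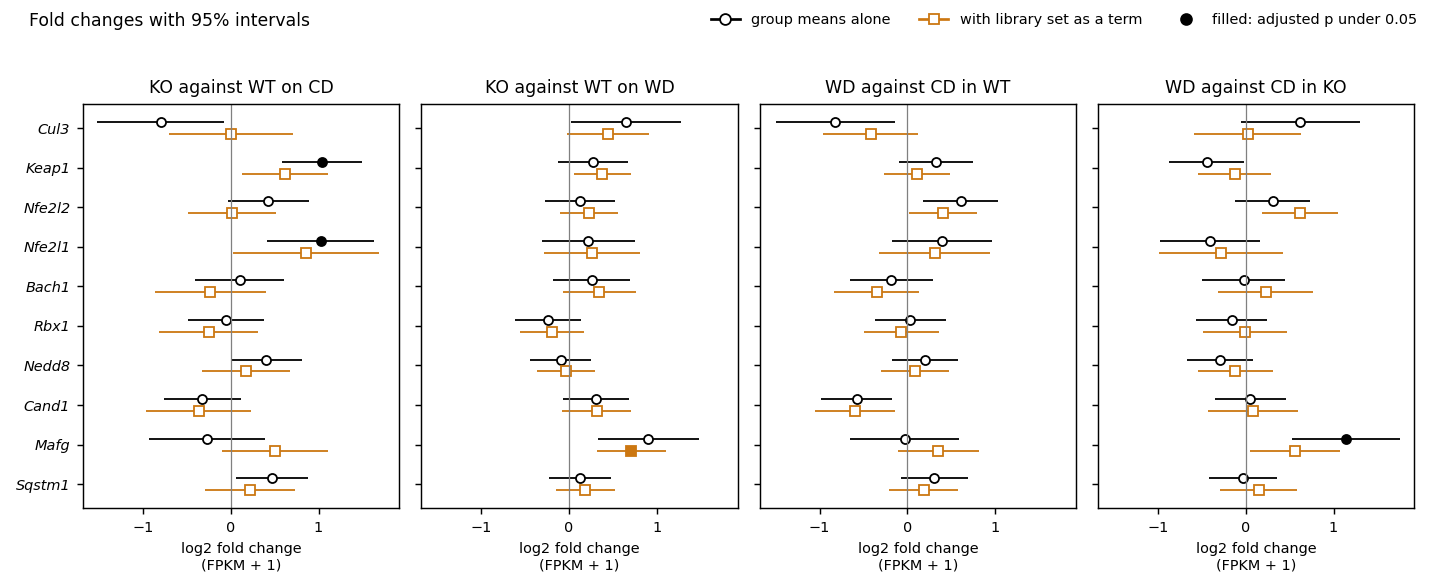
Log2 fold changes of FPKM + 1 (x axis) of the 10 genes (y axis) in 4 comparisons, with 95% intervals, from group means alone (black circles) and after set adjustment (orange squares), filled where the adjusted p is under 0.05. Keap1 (1.04) and Nfe2l1 (1.02) pass on CD and Mafg (1.14) between diets in KO without the set term, and Mafg (0.71) in KO+WD with it, though not with the sets defined by the placeholder (adjusted p = 0.104).

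The wider pathway was read from lists written from textbook knowledge. Earlier results of these data were known when the lists were chosen, so the counts are descriptions and not independent tests. NRF2 target genes rose while Nfe2l2 itself was not called. On CD 14 of 25 tested targets rose in KO and 0 fell (7 and 0 after set adjustment), with a median of 1.03. Of all tested genes 11.7% rose on CD and 6.01% on WD. On WD 18 rose and 0 fell (17 and 0 with the set), with a median of 1.49. The targets with the smallest p on either diet were the glutathione S-transferases Gstm1 (4.0 on CD and 3.42 on WD) and Gstm3 (5.72 and 5.99), close paralogs whose reads may be shared, and the efflux pump Abcc4 (2.71 and 2.79). Abcc4 went from 0.242 ± 0.139 to 7.59 ± 0.993 FPKM on WD. All 3 passed after set adjustment on both diets (highest adjusted p = 3.73e-04).

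Among genes of heme and iron handling linked to BACH1, 4 of 9 tested rose on CD and 3 on WD and 0 fell (1 and 4 rose after set adjustment), with medians of 0.10 and 0.76. Beside these, 11.7% of all tested genes rose on CD and 6.01% on WD. Hmox1, Slc7a11 and Gclm are in the list of NRF2 targets too, so the counts of these lists are not separate. Blvrb, which reduces biliverdin, went from 94.8 ± 14.3 to 396 ± 41.2 FPKM on CD and from 92.4 ± 14.8 to 312 ± 54.9 on WD (log2 fold changes 2.06 and 1.74, limma adjusted p = 4.91e-05 and 4.92e-05). The heme transporter Slc48a1 rose on CD and WD (1.61 and 0.99), the ferrochelatase Fech on CD (0.99) and the iron exporter Slc40a1 on WD (1.33). After set adjustment Blvrb kept its call on CD (1.78, limma adjusted p = 0.00329). The CD calls of Slc48a1 (1.21, adjusted p = 0.0598) and Fech (0.34, adjusted p = 0.565) ended. With median centring 2 of the 9 rose on either diet.

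In the other partners of the ligase, the calls on CD went either way. Of all tested genes, 15.0% passed on CD and 7.01% on WD. Of 28 tested cullins and neddylation genes on CD, 2 rose and 2 fell, with a median of 0.07, and on WD 0 rose and 0 fell. The calls with the smallest p on CD were Cul5, another cullin scaffold (11.6 ± 2.87 to 26.3 ± 5.97 FPKM), Nae1, a subunit of the NEDD8-activating enzyme (25.3 ± 7.91 to 5.90 ± 2.69 FPKM), and Cul4a (8.16 ± 1.48 to 4.07 ± 0.548 FPKM). Of 24 tested BTB adaptors 2 rose and 2 fell on CD, with a median of 0.18, and 1 rose on WD, with a median of 0.11. Klhl13, an adaptor linked to mitosis, rose on CD from 2.46 ± 0.881 to 5.41 ± 1.45 FPKM and on WD from 3.34 ± 0.502 to 7.75 ± 1.04 FPKM, and on WD it kept the call after set adjustment (1.04, adjusted p = 0.00939). Tnfaip1 rose (1.12) and Klhl24 fell by 1.56 on the log2 scale on CD. After set adjustment, 0 genes of either list passed on CD, where 1.16% of all tested genes did.

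Of 3 tested CNC factors and small Maf partners, 0 passed on CD and 1 rose on WD, the large Maf factor gene Maf, from 13.2 ± 5.90 to 28.3 ± 6.06 FPKM (1.13, limma adjusted p = 0.0276, and 0.0119 after set adjustment). With quantile normalization or median centring 0 of these passed, and the same holds for the BTB adaptors on WD. Of 11 tested other regulators of NRF2, 1 rose on CD, the stress-induced sestrin Sesn2 (1.29), and 0 passed on WD, with medians of 0.33 and 0.30. Of 7 genes that process NRF1, 2 rose on CD, the segregase Vcp (165 ± 13.7 to 285 ± 19.6 FPKM) and Sel1l (0.61), and 0 passed on WD, with medians of 0.61 and 0.053. With quantile normalization or median centring 0 of the 7 rose on CD, and 2 genes other than Vcp and Sel1l fell. Of 30 tested proteasome subunits, the best known NRF1 targets, 5 rose on CD, against 11.7% of all genes, and 0 passed on WD, with medians of 0.20 and -0.062. Those of smallest p were Psma7, Psma4 and Psmb4 (0.73, 0.94 and 0.98). With quantile normalization 0 rose on CD and 3 fell on WD, and with median centring 2 rose on CD and 2 fell on WD. Of 14 tested autophagy genes, 2 rose and 2 fell on CD, with a median of 0.14, and 0 passed on WD, with a median of 0.06. Gabarapl1 rose from 26.1 ± 2.04 to 85.5 ± 6.95 FPKM and its relative Gabarap fell from 13.5 ± 1.14 to 4.19 ± 2.65, while the receptor Optn rose (0.87). Over these 5 lists, 0 CD calls were left after set adjustment, while on WD 1 further gene rose in each of the lists of NRF2 regulators and autophagy genes.

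**Figure D3:**
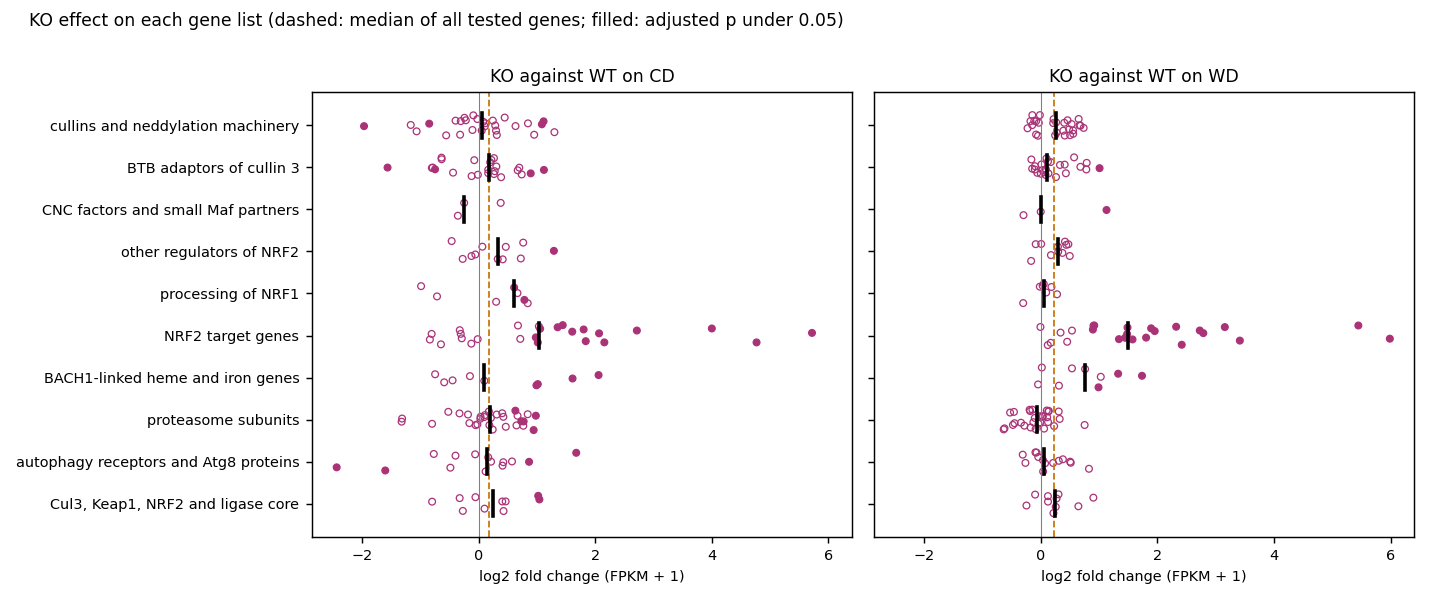
Log2 fold changes of FPKM + 1 (x axis) in KO against WT on each diet for the tested genes of 9 pathway lists and the 10 genes described (y axis), filled where the adjusted p is under 0.05, with list medians as black bars and the median of all tested genes dashed (0.18 on CD and 0.23 on WD). NRF2 targets reach medians of 1.03 and 1.49, and the 10 genes 0.25 and 0.24.

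The summed markers of Kupffer cells and macrophages were higher in KO libraries on both diets, those of lymphocytes on WD and those of stellate cells on CD. The hepatocyte sums given above were also higher in KO without overlap on CD. Set and genotype coincide on CD, so differences there cannot be told from the set. The summed FPKM of 12 Kupffer cell and macrophage markers, none of them at 0 throughout a group, was 59.8 to 92.9 in WT and 113 to 256 in KO+CD, and 95.2 to 191 in WT and 207 to 392 in KO+WD. Of its 11 tested markers 1 rose on CD and 4 on WD, and 0 fell, where 11.7% and 6.01% of all tested genes rose. After set adjustment 0 of these markers rose on CD and 3 on WD, and with quantile normalization 0 and 2. For 8 endothelial markers the sums were 69.98 to 126 and 112 to 180 on CD, and 61.8 to 109 and 101 to 197 on WD, which overlap on both diets. Of the 7 tested endothelial markers 2 rose on CD and 1 on WD, and 0 fell. After set adjustment 0 rose on CD and 1 on WD, and with quantile normalization or median centring 1 rose on either diet. For 8 lymphocyte markers, of which 2 to 5 were at 0 throughout a group, they were 1.17 to 2.67 and 2.31 to 3.79 on CD, and 1.92 to 10.1 and 10.5 to 21.8 on WD, which overlap on CD. For 8 stellate cell markers the sums were 105.6 to 141.6 and 142.1 to 157 on CD, apart by a narrow gap. They were 118 to 176 and 126 to 168 on WD, which overlap. In KO+CD 2 of these markers were at 0 throughout. Of the tested stellate cell markers 0 passed on either diet. Of the cholangiocyte markers 1 rose on WD, of the erythroid markers 1 fell on CD (list median -0.46), and of the neutrophil markers 0 passed. The cells other than hepatocytes keep Cul3, and their part in the levels of Cul3, Keap1, Nfe2l1 and Mafg was not tested.

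Across the 14 libraries the 10 genes did not move as 1 block. The highest correlations of log2 levels, given as descriptions of libraries that share groups and sets, were those of Keap1 with Sqstm1 (Pearson r = 0.72), Nedd8 with Sqstm1 (0.71), Keap1 with Nfe2l1 (0.71) and Nfe2l1 with Bach1 (0.63). Cul3 ran opposite to Keap1 (-0.54) and Nedd8 (-0.53) and with Mafg (0.58) and Cand1 (0.56). With group and set means taken off, Nfe2l1 with Bach1 remained at 0.81 and Nedd8 with Sqstm1 at 0.63, while Keap1 with Sqstm1 came to 0.27, Keap1 with Nfe2l1 to 0.051 and Cul3 with Mafg to -0.033.

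**Figure D4:**
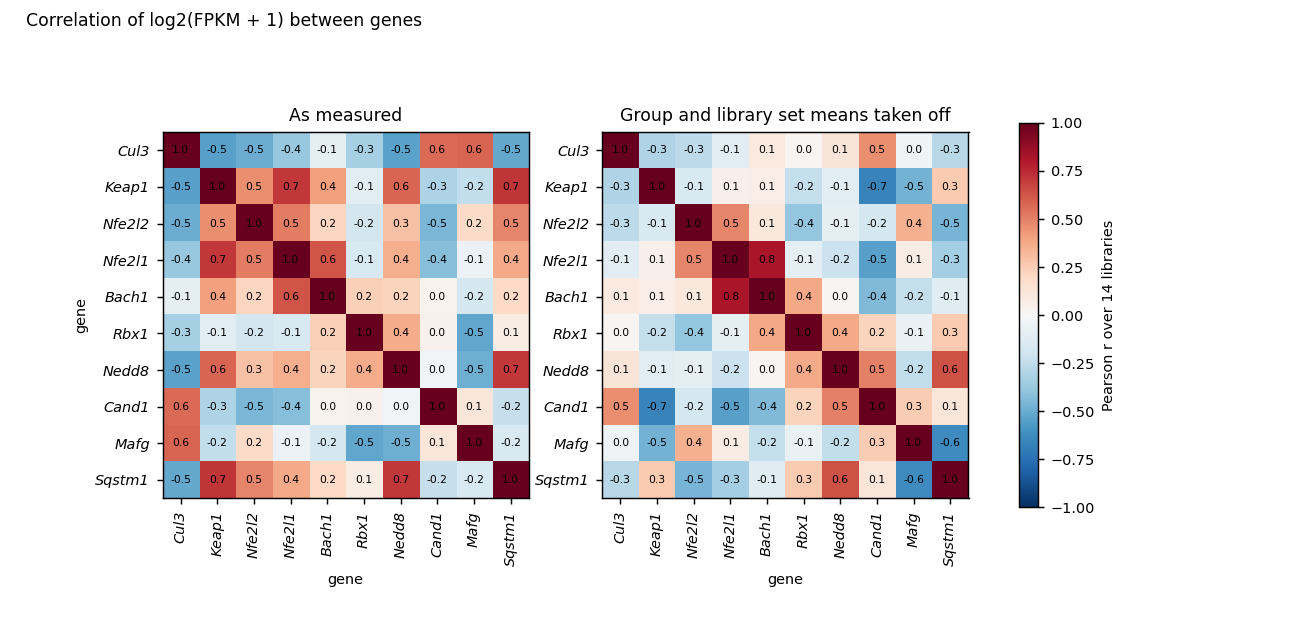
Pearson r of log2(FPKM + 1) over the 14 libraries between each pair of the 10 genes (both axes), as measured (left) and with group and library set means taken off (right), from blue (-1) to red (1). Nfe2l1 with Bach1 (0.63 and 0.81) and Nedd8 with Sqstm1 (0.71 and 0.63) are high in both panels.

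Among 4653 other named genes (mean 5 FPKM or more), those most like Cul3 over the 14 libraries were Rbm47, Dpm1 and Cmc1 (r = 0.95, 0.95 and 0.94). With set means taken off these came to 0.87, 0.85 and 0.83. Keap1 was most like Nsmce1, Ddah1 and Suds3 (0.95, 0.95 and 0.94), Nfe2l2 most like Spon2, Apoc2 and Gnai2 (0.87, 0.86 and 0.85) and Sqstm1 most like C4b, Clu and Pyurf (0.90, 0.90 and 0.88). The genes compared share libraries, and the highest of so many values is large by selection.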

How the data were processed

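Per the labels' protocols, Trizol RNA of whole liver was made into stranded QuantSeq 3' FWD libraries and run on a NovaSeq. The authors deposited 1 table of FPKM values for 43548 genes by 14 libraries. Cufflinks and mm10 are named, without versions, in the submitters' processing notes. The sources used here do not state the aligner, the annotation, the strand setting or how multi-mapping reads were treated. Scaling by library size is meant to make levels of a gene comparable between libraries. Scaling a 3' tag by transcript length does not make levels comparable between genes. Yam1, with a placeholder in 8 libraries, was left out.

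From the deposited FPKM, log2(FPKM + 1) was fitted in R 4.3.3 by limma 3.58.1 (moderated, trend on) over all 14 libraries with 1 mean per group. A gene was tested if 3 or more libraries reached 1 FPKM (10870 genes), with Benjamini-Hochberg adjustment over all of them, and every adjusted p comes from this. Fold changes on this scale understate those of low genes. FPKM values are mean ± SD over libraries, and log2 differences are given ± SE of the fit. Library sets were rebuilt by average-linkage clustering on how often rarely seen genes (detected in 8 libraries or fewer) share 1 FPKM ratio between 2 libraries, within a log2 window of 0.004. The clustering was cut at 2 sets. Pairs of set 1 shared a median of 7.08% (3.01 to 11.8%), pairs of set 2 4.78% (2.02 to 18.1%) and mixed pairs 2.63% (1.40 to 3.82%), so the ranges overlap. No 2 libraries were identical (highest correlation 0.958). Gene positions are from GENCODE M21 of mm10, in which all 10 gene IDs of the table were found. Of the pathway list entries 176 were matched by symbol, 1 through GENCODE and 1 not. Named genes are the 10 members, up to 3 called genes of smallest p per list and KO comparison, and the 3 most alike genes of 4 members. The members and lists were chosen with earlier results of these data known. Alternatives were other pseudocounts, filters, scalings, the library sets, a replicate block and leaving out each library.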

Additional observations from a re-analysis of the deposited data

Results flagged for a closer look

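Within WT+WD, Nedd8 in replicate 4 (181.4 FPKM) lay far below the other 3 libraries (200.5 to 203 FPKM), which are close together. Within the same group, Sqstm1 in replicate 2 (313.7 FPKM) lay far above the others (219 to 234 FPKM). Both were picked by the gap to the nearest library against the range of the group of 4. With 10 genes in 2 such groups, chance alone flags about 1 in 20.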

How the results depend on the processing

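Over all genes, the number called in KO against WT+CD (1633) was 586 with the replicate block, 126 with the library set as a term and 134 with the set taken from the placeholder, an alternative chosen after seeing the data, and 590 to 2463 when 1 library was left out. On WD (762) it was 507 on quantile-normalized values, 457 with median centring, 411 with only the groups compared, 314 in set 1 alone and 32 in set 2 alone, and 448 to 806 without 1 library. Calls split 1269 higher to 364 lower on CD and 653 to 109 on WD, against 623 to 498 and 281 to 226 with quantile normalization and 713 to 585 and 227 to 230 with median centring. For diet in WT (141) it was 41 with only the groups compared, 60 with the block, 76 with the set, 50 in set 1 alone, 58 with the placeholder set and 40 to 141 without 1 library. For diet in KO (693) it was 351 with no filter, 85 with the block, 38 with the set, 19 in set 2 alone, 28 with the placeholder set and 115 to 1765 without 1 library. For the difference between diets (37) it was 24 with a pseudocount of 0.1, 21 with no filter, 215 at a mean of at least 5 FPKM, 4 with the block, 2 with the set, 3 with the placeholder set and 4 to 1037 without 1 library.

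Of the 10 genes, the 2 called on CD became 1 with no filter, quantile normalization or the block, 0 with either set term, and 1 to 3 without 1 library. On WD 0 became 1 at a mean of at least 5 FPKM or with the set as a term, and 0 to 1 without 1 library. For diet in WT the range was 0 to 0. For diet in KO, 1 became 0 with no filter, the block, either set term or set 2 alone, and 0 to 1 without 1 library, and for the difference the range was 0 to 2. The calls of Keap1 (adjusted p = 0.0461) and not those of Nfe2l1 and Mafg (0.0838 and 0.1004) held with the block. Same-numbered libraries did not deviate together (18 pairs, correlations -0.297 to 0.158, 2 of them over 0.1). The labels state no pairing, and these correlations also carry the library sets, so they cannot exclude one. The cause of these changes was not tested.

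No called value changed sign in these alternatives. Uncalled values that did were, for KO+CD, Cul3 (0.0062 with the set), Bach1 (-0.021 quantile, -0.0063 centred, -0.029 block, -0.23 set) and Mafg (0.50 set, 0.087 placeholder set). For KO+WD they were Keap1 (-0.016 centred), Nfe2l2 (-0.13 quantile, -0.16 centred), Nfe2l1 (-0.032 and -0.070), Bach1 (-0.032 and -0.030), Sqstm1 (-0.078 and -0.16) and Nedd8 (0.19 in set 2 alone). For diet in WT they were Keap1 (-0.013 in set 1 alone), Rbx1 (-0.043 block, -0.068 set, -0.029 set 1 alone) and Mafg (0.028 block, 0.35 set, 0.38 set 1 alone, 0.15 placeholder set). For diet in KO they were Bach1 (0.049 block, 0.23 set, 0.38 set 2 alone), Rbx1 (0.068) and Nedd8 (0.029) in set 2 alone, Cand1 (-0.14 quantile, -0.13 centred) and Sqstm1 (0.15 set, 0.15 set 2 alone, 0.080 placeholder set). For the difference they were Nfe2l2 (0.21 set), Bach1 (-0.010 quantile, -0.024 centred) and Rbx1 (0.058 set). Leaving out 1 library gave both signs for Rbx1 on CD (-0.26 to 0.064), in diet in WT (-0.049 to 0.073) and KO (-0.28 to 0.052) and in the difference (-0.31 to 0.021), for Nedd8 in KO+WD (-0.20 to 0.045), for Mafg in diet in WT (-0.28 to 0.16), and in diet in KO for Bach1 (-0.16 to 0.10), Cand1 (-0.051 to 0.15) and Sqstm1 (-0.10 to 0.092). Read depth is unknown and limits what can be said of the low genes Bach1 and Cand1.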

Other observations

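Ratios of FPKM within a library do not depend on its scaling, and are comparable between libraries only. The ratio of Keap1 to Nfe2l2 was 0.99 to 1.25 in WT+CD, 1.43 to 1.94 in KO+CD, 0.65 to 1.14 in WT+WD and 0.82 to 1.14 in KO+WD, so it was highest in KO+CD without overlap. The ratio of Nfe2l1 to Nfe2l2 was 1.35 to 1.69, 1.89 to 2.87, 0.90 to 1.93 and 1.17 to 1.81 in the same order. The ratio of Sqstm1 to Keap1 was 6.97 to 8.49, 4.38 to 5.82, 5.66 to 9.59 and 5.53 to 7.15. Bach1 to Nfe2l2 was 0.20 to 0.27 in WT+CD and 0.12 to 0.17 in KO+WD, with KO+CD (0.17 to 0.20) and WT+WD (0.09 to 0.18) between or across them. KO+CD is all of library set 2, so set and genotype cannot be told apart in these values.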
